A study of Mus musculus with 112 samples.

Results

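Sperm DNA methylation (DNAme) in the third and last recovery group, males taken longest after cigarette smoke (CS) exposure had ended, was compared with that of unexposed males. The comparison used all 20 libraries that the labels place in these groups, 10 in recovery 3 and 10 in control WT, of the 112 libraries in the series. All were sperm of C57BL/6J wild type (WT) males, and each library was 1 male. CS was given for 60 days from 6 to 7 weeks of age. Control WT and the exposed males called smoked WT (n = 9) were collected within 3 days of the end of exposure. Exposed males called recovery 1 (n = 9), recovery 2 (n = 10) and recovery 3 were kept without smoke for increasing times, between 28 and 171 days. Recovery 3 males were therefore also older than the control males at collection, and no unexposed males of their age were among the samples used. Earlier smoke, time without smoke and age cannot be told apart in this comparison. Unexposed (n = 10) and exposed (n = 9) Nrf2-/- males, which lack the oxidative stress regulator NRF2, entered the fit for the spread between libraries.

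Methylation of a CpG, a cytosine followed by guanine, is laid down on the DNA of male germ cells before birth and is then copied as spermatogonial stem cells divide. Mature sperm is methylated at most CpGs outside CpG-rich gene starts, and sperm taken long after an exposure descends from stem cells that have gone through further rounds of division and of spermatogenesis. Reduced representation bisulfite sequencing (RRBS) reads CpGs near restriction sites, here those of MspI and TaqαI, and bisulfite turns unmethylated cytosine into a base read as thymine. The value of a cytosine is the percent of its reads that were methylated. Neighbouring cytosines at most 100 bp apart were joined into 62831 regions of at least 3 cytosines and over 50 bp, with a median of 6 cytosines and 111 bp. Coordinates are those of mouse build mm10 (GRCm38).

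Most sperm markers were low in both groups. Over 17 regions at the starts of 11 germ line genes, whose promoters are methylated in somatic cells, the median DNAme of a library was 0.400% to 1.85% in control WT and 0.379% to 1.73% in recovery 3. At 17 regions at the starts of 12 maternally imprinted genes it was 0.104% to 2.15% and 0.284% to 1.32%. Not every region was low. The Nnat region had 10.8% in control WT and 10.1% in recovery 3, 1 of the 3 regions at Plagl1 had 95.4% and 96.5%, and 1 of the 2 at Inpp5f had 97.5% and 97.9%. The number of positions with a value ranged from 800578 to 1673284 per library in control WT and from 992073 to 1292371 in recovery 3. The reads behind each percent are unknown, so no interval for counting error can be given.

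The methylome as a whole did not shift by a detectable amount. Averaged over the cytosines scored in each library, DNAme stood at 36.1% ± 0.952 (SD, n = 10) in recovery 3 and at 36.04% ± 2.31 (SD, n = 10) in control WT, a difference of 0.0580 points (two-sided permutation test with 100000 resamples, p = 0.945). The lowest, median and highest library had 34.5%, 36.1% and 37.5% in recovery 3. They had 33.02%, 36.04% and 40.8% in control WT, so the recovery 3 libraries lay within the range of the controls. Each of these means covers the cytosines scored in its own library. On the 447533 cytosines with a value in every library of both groups the spread was smaller. DNAme there was 45.04% ± 0.250 (SD, n = 10) in recovery 3 and 44.74% ± 0.842 (SD, n = 10) in control WT. The difference was 0.294 points (two-sided permutation test, p = 0.317).

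Within this methylome, 20 regions differed between recovery 3 and control WT by limma (adjusted p below 0.05), 0.0318% of the 62831 tested. DNAme was lower in recovery 3 at 19 of them, with differences of -5.37 to -41.78 points and a median of -12.03, and higher at 1. At an unadjusted p below 0.05, limma gave 3948 regions (6.28%), 1871 lower (2.98%) and 2077 higher (3.31%). Lower regions thus predominated among the called regions and not in this wider set. The count of 20 depended on the spread being estimated over all 7 F0 sperm groups. A fit of the recovery 3 and control WT libraries alone called 2 regions, 1 of them among the 20. Leaving out 1 library gave 10 to 21 calls. It gave 10 to 13 calls without control WT column 1, 4, 5, 6, 7 or 9 and without recovery 3 column 2, 3, 4 or 9, where columns are numbered in the order of the table.

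All 20 regions kept their direction in every alternative fit that tested them and in every fit without 1 library. They were chosen in these libraries for differences well beyond their SE, so a kept direction adds no separate evidence. The 9 regions with the smallest p passed in all 20 fits that left out a library, and the remaining 11 passed in 4 to 19 of them. The Adamts9 region described below was the only 1 of the 20 to pass in every alternative fit that tested it as well; with at least 5 cytosines required, it was not tested. All 92 scored cytosines in the 20 regions moved in the direction of their region, 78 of them by more than 5 points. The regions were chosen on the mean of these same cytosines in these libraries, which favours a shared direction. This count therefore adds no separate evidence. Cytosines of both DNA strands were scored in each region.

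The sequences of 6 of the 20 regions are shown: the 3 with the smallest p, the only region that was higher, the only region at a gene start, and the region with the most scored cytosines. They are the plus strand of GRCm38, from RefSeq, 5′ to 3′, from the first to the last scored cytosine. Capitals mark CpGs in which the cytosine of at least 1 strand was scored.
Adamts9 region, chr6:93274288-93274355: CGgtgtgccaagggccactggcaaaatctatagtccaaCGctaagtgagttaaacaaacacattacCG
Dnah6 region, chr6:73060183-73060283: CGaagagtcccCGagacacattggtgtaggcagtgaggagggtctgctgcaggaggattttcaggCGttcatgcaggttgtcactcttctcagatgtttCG
Crim1 region, chr17:78253385-78253491: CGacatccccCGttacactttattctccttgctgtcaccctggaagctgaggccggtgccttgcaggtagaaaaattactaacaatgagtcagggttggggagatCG
Gm10741 region, chr10:121160347-121160443: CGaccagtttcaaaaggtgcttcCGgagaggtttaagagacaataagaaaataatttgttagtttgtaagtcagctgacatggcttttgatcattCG
Cox6a2 region, chr7:128206163-128206268: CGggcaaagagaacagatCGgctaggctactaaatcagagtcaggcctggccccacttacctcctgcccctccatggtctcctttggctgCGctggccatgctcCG
Ajap1 region, chr4:153717244-153717508: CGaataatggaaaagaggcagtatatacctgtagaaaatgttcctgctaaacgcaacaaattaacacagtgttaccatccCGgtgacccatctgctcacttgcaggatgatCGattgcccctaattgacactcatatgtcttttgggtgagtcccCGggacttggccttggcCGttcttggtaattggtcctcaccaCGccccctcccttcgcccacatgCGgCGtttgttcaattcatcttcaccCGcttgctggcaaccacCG

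Most of the 20 lay away from gene starts. By the gene models, 10 were intergenic, 7 intronic, 2 in exons outside gene starts and 1 within 1 kb of a gene start. Of all tested regions, 42.9% lay within 1 kb of a gene start and 25.1% were intergenic. The median distance to the start of a protein-coding gene was 47110 bp for the 20 and 4545 bp for all regions. The median control WT level was 68.1% for the 20 and 6.90% for all regions. A region with little DNAme cannot fall far, and location was not compared among regions of like level. The 20 were spread over 11 chromosomes, with 3 on chromosome 10 and at most 2 on any other. Their control level was at or above 25% and below 75% at 12 regions, at or above 75% at 7 and below 25% at 1. Of the 40 nearest tested regions on either side, 3 had an unadjusted limma p below 0.05, beside 6.28% of all regions. Beside Dnah6 and Enox1 they were higher (2.22 and 2.11 points) where the called region fell, and beside Ajap1 it was lower (-1.27), the only 1 of the 13 neighbours within 5 kb.

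The region with the smallest p was intergenic, on chromosome 6 at 93274288 to 93274355, 330796 bp from the start of Adamts9, the gene of a secreted metalloprotease. The lowest, median and highest control WT library had 54.96%, 66.9% and 71.2% DNAme there. In recovery 3 they had 28.1%, 33.1% and 43.6%. The groups did not overlap, which was so at 3 of the 20 regions and at 0.0462% of all regions. The difference was -31.79 points (SE 3.04, adjusted p by limma = 1.35e-10), and the adjusted p reached 3.59e-06 at most in the other fits. All 4 cytosines fell. The first of them went from 43.2% in control WT to 7.12% in recovery 3, and the last from 71.99% to 35.7%. Smoked WT stood at 64.5% ± 7.49 (SD, n = 9), recovery 1 at 53.8% ± 7.06 (n = 9) and recovery 2 at 40.5% ± 5.43 (n = 10). Unexposed and exposed Nrf2-/- sperm had 53.9% ± 9.23 (n = 10) and 53.3% ± 6.52 (n = 9), with limma adjusted p against control WT of 0.0547, which did not pass, and 0.0494, which did, where 0.374% and 0.314% of all regions were called. The next tested region, 4458 bp away, was 94.4% methylated in control WT and differed by -1.98 points (unadjusted limma p = 0.201).

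**Figure D1:**
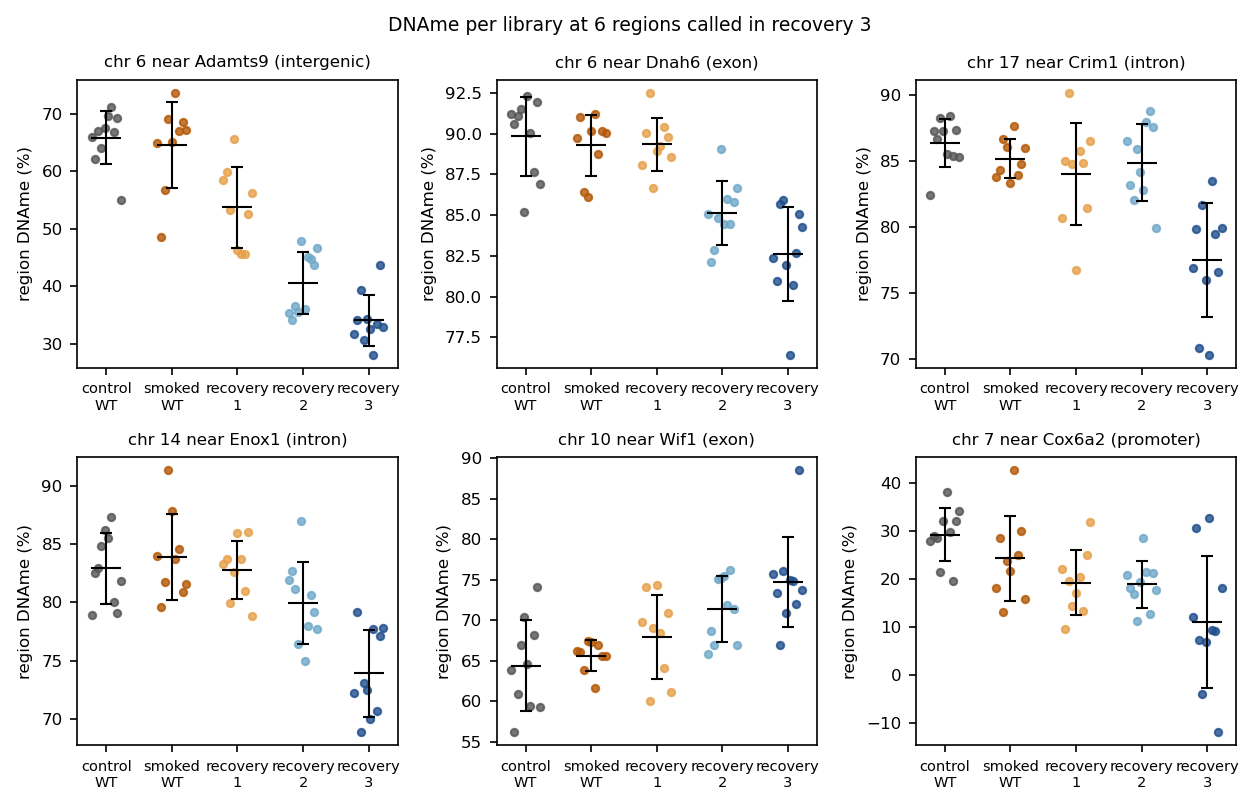
Region DNAme in percent for each library (points) of the 5 WT groups at 6 called regions, with the group mean and SD (black). At the Adamts9 region the 10 recovery 3 libraries lie at 28.1% to 43.6%, below all 10 control WT libraries, and the Wif1 panel shows the single region that was higher in recovery 3.

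After Adamts9, the smallest p was in an exon. The region at chromosome 6, 73060183 to 73060283, lies in a coding exon of Dnah6, which encodes a heavy chain of the dynein motors of cilia and flagella. Control WT libraries had 85.2%, 90.8% and 92.3% (lowest, median, highest) and recovery 3 libraries 76.4%, 82.5% and 85.9%. The groups overlapped, but 8 of 10 recovery 3 libraries lay below every control. DNAme fell by 7.24 points (SE 0.95, limma adjusted p = 4.61e-06, 0.113 in the fit of the 2 groups alone). Smoked WT (89.3% ± 1.86, n = 9) and recovery 1 (89.4% ± 1.63, n = 9) stood at the control level of 89.8% ± 2.42 (n = 10), and recovery 2 at 85.1% ± 1.94 (n = 10). The region at chromosome 10, 92971557 to 92971627, lies in an intron of Cfap54, which encodes a protein of the flagellar axoneme. It had 84.8%, 86.4% and 89.5% in control WT and 76.4%, 83.2% and 87.03% in recovery 3, again with overlap. It fell by 5.37 points (SE 1.01, limma adjusted p = 0.0122, 0.469 in the fit of the 2 groups alone), the smallest change of the 20. No expression data from these sperm were used here.

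Among the other intronic regions, that of Crim1 on chromosome 17 (78253385 to 78253491) passed against control WT, smoked WT and recovery 2. Crim1 encodes a membrane protein that binds bone morphogenetic proteins. Control WT had 82.4%, 86.9% and 88.4% (lowest, median, highest) and recovery 3 had 70.3%, 78.2% and 83.5%, with 9 of 10 recovery 3 libraries below every control. DNAme fell by 8.87 points (SE 1.32, limma adjusted p = 0.000142, 0.113 in the fit of the 2 groups alone). Of the 20, only this region also passed against recovery 2, by -7.38 points (limma adjusted p = 0.0349), and it was the only 1 of all regions to do so (0.00159%). The means of smoked WT, recovery 1 and recovery 2 were 85.2% ± 1.49 (n = 9), 83.97% ± 3.86 (n = 9) and 84.9% ± 2.91 (n = 10). The region in an intron of Enox1, which encodes a plasma membrane oxidase, lies on chromosome 14 (77580511 to 77580588). It had 78.9%, 82.8% and 87.3% in control WT and 68.8%, 72.8% and 79.2% in recovery 3. It fell by 9.03 points (SE 1.57, limma adjusted p = 0.00418), with smoked WT at 83.9% ± 3.70 (n = 9), recovery 1 at 82.8% ± 2.52 (n = 9) and recovery 2 at 79.96% ± 3.498 (n = 10).

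The region in an intron of Cdh4, the gene of R-cadherin, lies on chromosome 2 (179616118 to 179616234). It had 63.2%, 71.1% and 77.1% in control WT and 57.4%, 61.8% and 67.3% in recovery 3, and 6 of 10 recovery 3 libraries lay below every control. The difference was -9.16 points (SE 1.74, limma adjusted p = 0.0127). Smoked WT stood at 72.2% ± 4.82 (n = 9), recovery 1 at 69.5% ± 4.04 (n = 9) and recovery 2 at 64.8% ± 3.92 (n = 10). A second region of chromosome 2 (66170860 to 66170957), in an intron of the noncoding gene Gm28638 and 45866 bp from the start of Galnt3, had 30.1%, 46.7% and 54.7% in control WT and 20.8%, 26.1% and 46.1% in recovery 3. Its highest recovery 3 library lay just below the median control, and the others were at most 31.8%. It fell by 17.29 points (SE 3.26, limma adjusted p = 0.0122), and the means of smoked WT, recovery 1 and recovery 2 were 43.5% ± 7.62, 38.6% ± 7.01 and 41.01% ± 3.82.

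The single region that rose lies on chromosome 10 (121160347 to 121160443), in an exon of the noncoding gene Gm10741. The nearest protein-coding start, 76592 bp away, is that of Wif1, a secreted inhibitor of Wnt signalling. Its lowest, median and highest libraries were 56.2%, 64.3% and 74.2% in control WT and 67.02%, 74.3% and 88.5% in recovery 3. The groups overlapped, and 5 of 10 recovery 3 libraries lay above every control. DNAme rose by 10.31 points (SE 1.92, limma adjusted p = 0.0122, 0.426 in the fit of the 2 groups alone). Smoked WT had 65.7% ± 1.86 (n = 9), recovery 1 had 67.996% ± 5.17 (n = 9) and recovery 2 had 71.4% ± 4.04 (n = 10).

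At gene starts, the region of Cox6a2 was the only 1 called. Cox6a2 encodes the heart and muscle form of a cytochrome c oxidase subunit. The region, on chromosome 7 (128206163 to 128206268), begins 119 bp from the start site, overlaps a coding exon of Cox6a2, and lies within the body of Itgad, which runs on the opposite strand. Mean DNAme was 29.3% ± 5.53 (n = 10) in control WT and 11.02% ± 13.7 (n = 10) in recovery 3, and 8 of 10 recovery 3 libraries lay below every control. The difference was -18.24 points (SE 3.59, limma adjusted p = 0.0194). This value rested on how missing cytosines were treated. Of the 4 cytosines, the plus strand pair had a value in 6 recovery 3 libraries and the minus strand pair in 10, and a library lacking some was adjusted by the means of the others, which took 2 of the libraries below 0 (lowest -11.9%). With at least 80% of cytosines required per library, the difference was -11.87 points (limma adjusted p = 0.350), and with cytosines joined at up to 300 bp it was -5.93 points (limma adjusted p = 0.682). The call was also lost without control WT column 6 or recovery 3 column 4 or 9 (limma adjusted p up to 0.0747). The minus strand cytosine nearest the start went from 51.95% to 18.7% and the other from 41.4% to 23.95%. The plus strand pair went from 8.98% to 3.03% and from 14.9% to 12.1%.

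Of the 10 intergenic regions, 2 others were among the 10 smallest p. The region on chromosome 15 (86928497 to 86928574), 615725 bp from the start of Fam19a5, had 76.4%, 86.3% and 89.997% in control WT and 58.3%, 66.1% and 87.3% in recovery 3. It fell by 16.85 points (SE 3.08, limma adjusted p = 0.0106), with 9 of 10 recovery 3 libraries below every control and the tenth at 87.3%. Recovery 2 stood at 70.4% ± 4.97 (n = 10), smoked WT at 80.2% ± 7.90 (n = 9) and recovery 1 at 81.3% ± 9.34 (n = 9). The region on chromosome 10 (123259291 to 123259445), 4551 bp from the start of Fam19a2, the gene of a secreted chemokine-like protein, had 60.5%, 71.7% and 76.1% in control WT and 57.4%, 59.8% and 63.8% in recovery 3. It fell by 9.69 points (SE 1.88, limma adjusted p = 0.0177, and 0.0639 without control WT column 6). Smoked WT was at 65.5% ± 4.78 (n = 9), recovery 1 at 68.1% ± 3.46 (n = 9) and recovery 2 at 64.9% ± 3.41 (n = 10).

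The remaining 9 regions had limma adjusted p of 0.0194 to 0.0417, and each lost its call without at least 7 of the 20 libraries left out in turn. The largest difference, -41.78 points at chromosome 5, 128473948 to 128474030, 40871 bp from Tmem132d, rested on 7 libraries a group, and it was -25.05 points (limma adjusted p = 0.618) with at least 80% of cytosines per library. Recovery 3 libraries there spread from 15.3% to 85.3%, against 66.3% to 100% in control WT. The region on chromosome X (80848075 to 80848145), 222553 bp from Tmem47, differed by -26.29 points over 6 and 7 libraries and consists wholly of repeat-masked sequence. The intronic regions of Osmr, an oncostatin M receptor subunit (chromosome 15, 6871814 to 6871879), and of Idh2, the mitochondrial NADP-dependent isocitrate dehydrogenase (chromosome 7, 80109199 to 80109287), differed by -20.12 and -16.18 points. At Idh2 the lowest, median and highest libraries were 26.5%, 37.9% and 44.2% in control WT and 11.7%, 19.5% and 29.4% in recovery 3.

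The other 5 of these 9 were intergenic. They lay at chromosome 9, 61306436 to 61306508, nearest to Tle3 (-17.97 points), at chromosome 9, 66595226 to 66595360, 2084 bp from the start of Usp3 (-12.03), and at chromosome 5, 103376760 to 103376838, nearest to Ptpn13 (-12.00). The others lay at chromosome 4, 153717244 to 153717508, nearest to Ajap1 (-11.25), and at chromosome 17, 74175913 to 74176030, nearest to Memo1 (-7.38). At Usp3 the groups did not overlap, with 41.1% to 50.3% in recovery 3 and 53.8% to 68.5% in control WT, and 60.7% of the region was repeat-masked. The Ajap1 region held 12 scored cytosines, the most of the 20. Nrf2-/- sperm lay above control WT (26.4% ± 6.03, n = 10) there, at 33.98% ± 6.88 (n = 10) unexposed and 37.1% ± 4.47 (n = 8) exposed, the latter by 10.70 points (limma adjusted p = 0.0203). At Memo1 they were 3.70 and 4.70 points above it (limma adjusted p = 0.504 and 0.320). Of the 20 regions, 14 moved in the direction of recovery 3 in unexposed Nrf2-/- sperm and 14 in exposed. At an unadjusted limma p below 0.05 it was 6 and 8, with 3 and 2 the other way. With adjustment limma called 0 and 2 of the 20, where 0.374% and 0.314% of all regions were called. These comparisons share control WT with the one that chose the regions. Their direction over all regions was not counted. The Ajap1 cytosines below 10% in control WT differed by -0.999 to -5.98 points, and those above 25% differed by -11.3 to -20.5 points. The first region outside the threshold, on chromosome 11 near Sec14l1, had 23.01% in recovery 3 and 43.1% in control WT (limma adjusted p = 0.0654), beside 66.4% and 73.7% (limma adjusted p = 0.0417) at Memo1, the last inside it.

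**Figure D2:**
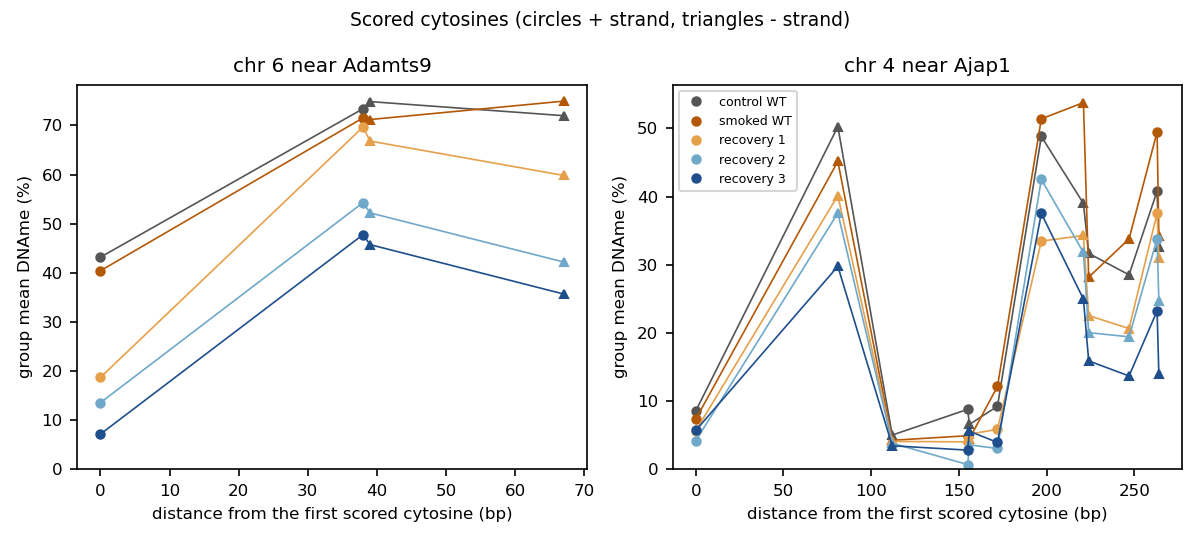
Group mean DNAme in percent of each scored cytosine against its distance in bp from the first one, for the 5 WT groups, with circles for the plus strand and triangles for the minus strand. All 4 cytosines of the Adamts9 region (left) are lower in recovery 3, and in the Ajap1 region (right) the cytosines above 25% in control WT differ by -11.3 to -20.5 points.

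What the 20 regions did in the earlier smoke groups was read first from the means of libraries outside the comparison that chose them. Recovery 2 against smoked WT uses the mean of neither recovery 3 nor control WT. In that comparison 18 of the 19 regions that fell in recovery 3 were lower in recovery 2 than in smoked WT, where 47.4% of all regions were lower. At 10 of the 19 the unadjusted limma p was below 0.05, against 1.62% of all regions that were lower at that level (1.89% were higher). The median difference of the 19 was -3.98 points. The Gm10741 region, higher in recovery 3, was 5.72 points higher (SE 1.98, unadjusted limma p = 0.00519). Only the Adamts9 region passed with adjustment over all regions, by -23.98 points (SE 3.12, limma adjusted p = 8.22e-06), and limma called 2 of 62831 regions in all (0.00318%). These comparisons are not independent in their spread. The SE of a region was estimated from all 7 groups, recovery 2 and smoked WT included, as was the adjustment for missing cytosines, so regions with a small SE were favoured both in the choice of the 20 and in these p-values.

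The other called regions with a difference of at least 5 points between recovery 2 and smoked WT and an unadjusted limma p below 0.05 were those of Osmr (-11.42), Fam19a5 (-9.79), Ajap1 (-8.27), Cdh4 (-7.35), Memo1 (-6.04) and Ptpn13 (-5.27), all lower. The Dnah6 region was 4.16 points lower (unadjusted limma p = 6.61e-05). By contrast, the Crim1 (-0.29), Tmem132d (0.05), Tmem47 (-0.43) and Fam19a2 (-0.61) regions were within 1 point of smoked WT in recovery 2, each less than its SE. The median difference of recovery 1 from smoked WT was smaller, but not every single difference was. It was larger in size than that of recovery 2 at the Crim1, Tmem132d, Tmem47, Fam19a2, Galnt3, Tle3 and Usp3 regions. The differences of recovery 1 ranged from -10.77 points to 7.24 points over the 19, the highest at Tle3, where recovery 2 had -3.32. Of the 19, 12 were lower, where 44.5% of all regions were. The median was -1.50 points, and 2 of them, at the Adamts9 and Ajap1 regions, had an unadjusted limma p below 0.05, against 1.77% of all regions lower at that level. Between recovery 2 and recovery 1 15 of the 19 were lower, where 53.5% of all regions were, with a median of -3.41 points. At 7 of them the unadjusted limma p was below 0.05, against 2.87%. limma called none of the 20 with adjustment in recovery 1 against smoked WT or in recovery 2 against recovery 1. It called no region at all there, with 3141 (5.0%) and 3018 (4.8%) at an unadjusted p below 0.05.

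**Figure D3:**
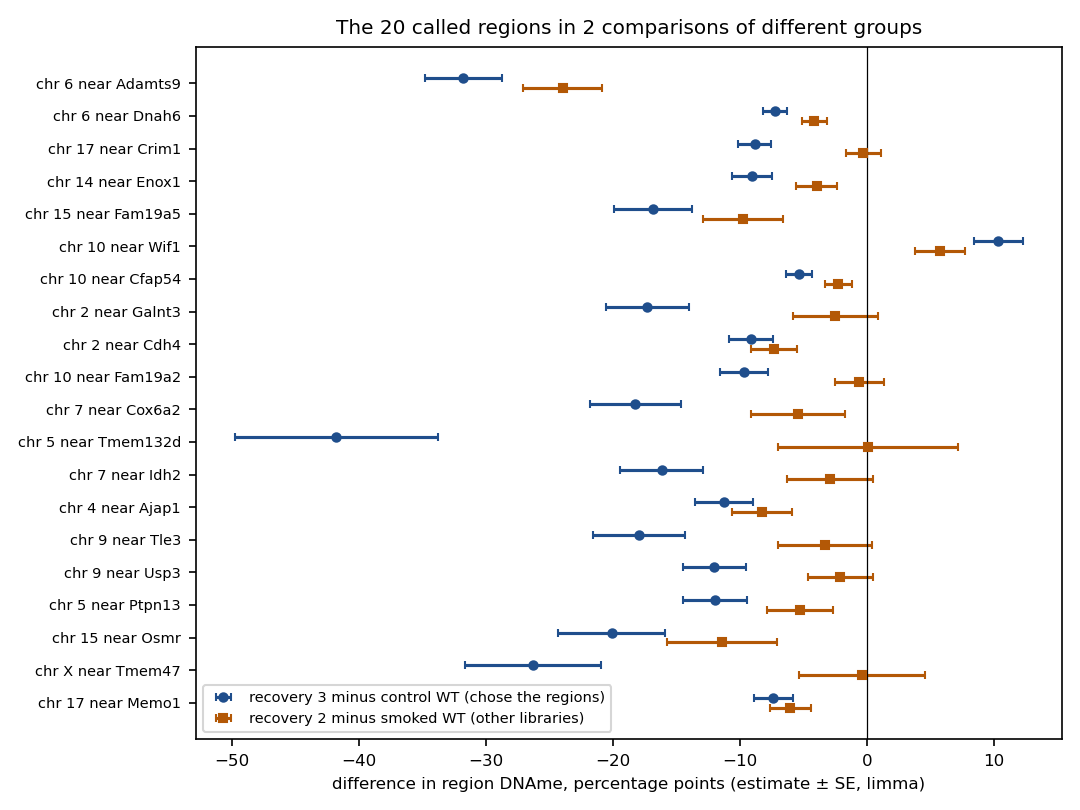
Difference in region DNAme in percentage points with its SE from limma, for the 20 called regions, in recovery 3 minus control WT (circles) and in recovery 2 minus smoked WT (squares). The group means of the 2 comparisons come from different libraries, while the SEs and the adjustment for missing cytosines rest on all 7 groups, and 18 of the 19 squares of regions that fell in recovery 3 lie below 0.

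At the end of exposure all 20 regions differed less from control WT than in recovery 3. They were chosen for their recovery 3 difference, which favours a smaller difference in any other group. The difference of smoked WT from control WT over the 19 lower regions ranged from -11.65 to 1.08 points with a median of -1.98. Of the 19, 13 were lower, where 59.3% of all regions were, and 2, at Tmem47 (-11.65 points) and Fam19a2 (-4.88 points), had an unadjusted limma p below 0.05, against 2.78% of all regions lower at that level. With adjustment, limma called none of the 20 there, with 1 of all regions called (0.00159%). That comparison shares its controls with the one that chose the regions. The corresponding medians were -2.86 points in recovery 1 and -7.26 points in recovery 2, against the same controls. Tested directly against smoked WT, recovery 3 passed at 9 of the 20 (limma adjusted p below 0.05), where 21 of all regions were called (0.0334%). This comparison shares the recovery 3 libraries with the one that chose the regions. The 9 were the regions of Adamts9 (-30.46 points), Osmr (-20.50), Ajap1 (-12.26), Cdh4 (-10.24), Enox1 (-10.04), Crim1 (-7.67), Memo1 (-7.51), Dnah6 (-6.69) and Cfap54 (-5.95). In a fit of these groups alone it was 2. Against recovery 1, also sharing the recovery 3 libraries, 3 of the 20 passed, where 5 of all regions did (0.00796%). They were Dnah6 (-6.76 points, limma adjusted p = 0.000153), Adamts9 (-19.69 points, limma adjusted p = 0.00100) and Enox1 (-8.91 points, limma adjusted p = 0.0132).

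**Figure D4:**
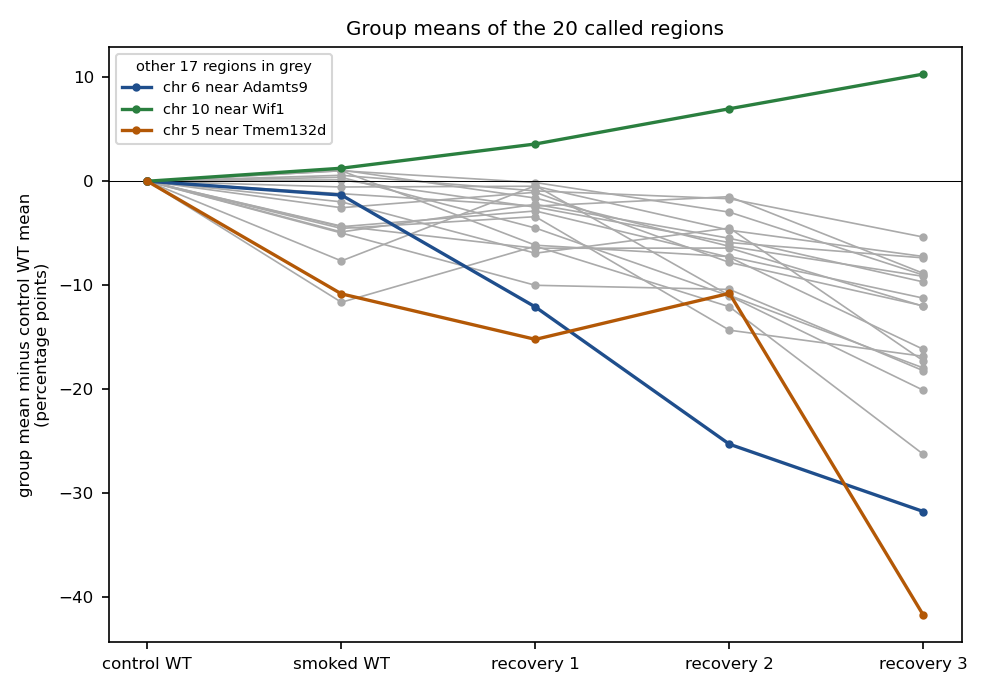
Group mean minus control WT mean in percentage points for each of the 20 called regions (lines) in the 5 WT groups. The regions were chosen for the last point, and in smoked WT they lay between -11.65 and 1.25 points of the control mean.

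The libraries' facility numbers placed 1 library of each WT group in every run of 5 consecutive numbers, except that 1 smoked WT and 1 recovery 1 library were absent. Recovery 3 was compared with control WT within these runs, which describes the libraries that chose the regions and adds no further evidence. At 14 of the 20 regions the difference had the same sign in every run with both values, over 10 runs except for 5 at the Tmem132d and 4 at the Tmem47 region. At the other 6, 1 run went the other way. With the run as a term in a fit of the 5 WT groups, an alternative added after the data were seen, limma called 17 regions, 12 of them among the 20.

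Differentially methylated regions (DMRs) were also called by size, with no test, after the study's rule. The study set a minimum read coverage for a cytosine, which could not be checked here. Counting cytosines on each strand and joining them at up to 100 bp were choices made here, on which the study's text is silent. At least 33.3% of a region's cytosines must differ by more than 5 points between group means, and so must the mean difference. By that rule 2578 regions (4.1%) were DMRs, 784 higher (1.25%) and 1794 lower (2.86%) in recovery 3, and all 20 called regions were among them. The split by direction changed with the joining distance, which also changes which regions are tested. With cytosines joined at up to 300 bp, 3570 of 6080 DMRs (58.7%) were higher, against 30.4% at 100 bp. With a 10 point change required it was 87 of 567 (15.3%). With the strands of a CpG merged 37.2% of DMRs were higher, and without 1 library 26.8% to 34.7% were.

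DMRs were most frequent, per region tested, where DNAme was intermediate. To keep the class of a region apart from the comparison, regions were classed by their level in smoked WT, recovery 1 and recovery 2. DMRs made up 32.6% of the 2007 regions at 25 to 50% and 27.9% of the 2027 at 50 to 75%, but 1.78% of the 35198 below 25% and 3.10% of the 23599 at 75% and above. Lower DMRs outnumbered higher ones in the classes below 75% (550 against 76, 565 against 89 and 413 against 153), and higher ones did so at 75% and above (466 against 266). By location, 1.37% of regions within 1 kb of a gene start were DMRs, 4.35% of exonic, 5.31% of intronic and 7.66% of intergenic regions. Location was not compared among regions of like DNAme level. The spread of DMRs between libraries was of the size of their differences. The median SD between control WT libraries was 8.85 points in DMRs and 1.80 points in all regions, beside a median DMR difference of -7.54 points among the lower and 6.54 points among the higher.

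**Figure D5:**
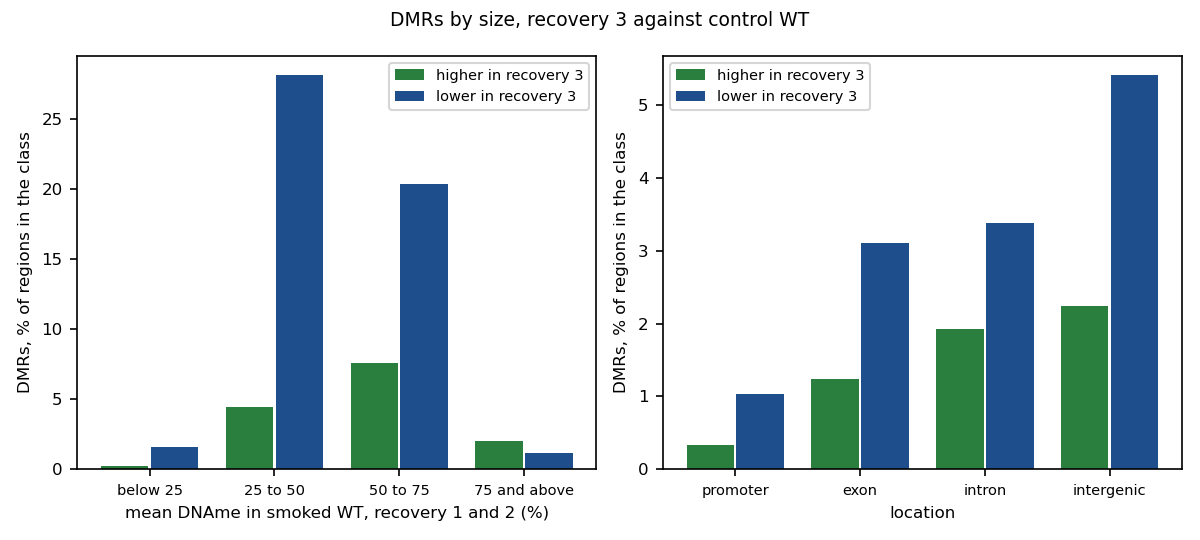
DMRs called by size in recovery 3 against control WT, as a percent of the regions in each class, higher (green) and lower (blue), by mean DNAme in smoked WT, recovery 1 and recovery 2 (left) and by location (right). Lower DMRs reach 28.2% of regions at 25 to 50% DNAme, and intergenic regions hold the largest share of the 4 locations.

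In the earlier smoke groups the direction of the DMRs varied with the comparison. Of the 1794 DMRs lower in recovery 3, 251 (13.99%) were lower in recovery 2 than in smoked WT by the same rule of size and 228 (12.7%) were higher, where 1.07% and 1.49% of all regions were. Of the 784 higher DMRs, 108 (13.8%) were higher and 37 (4.72%) lower there. In recovery 1 against smoked WT, 357 of the lower DMRs (19.9%) were lower and 162 (9.03%) higher, where 1.68% and 1.53% of all regions were. Of the higher DMRs 170 (21.7%) were higher and 63 (8.04%) lower. In recovery 2 against recovery 1, 152 (8.47%) of the lower DMRs were lower and 369 (20.6%) higher, where 1.09% and 1.8% were, and of the higher DMRs 67 (8.55%) were higher and 86 (10.97%) lower. No test was made of these shares, and all regions were not matched to the DMRs for level or spread. The median control WT level was 52.9% in DMRs and 6.90% in all regions.

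The largest falls by size among regions with a value in at least 8 libraries of both groups were at the Adamts9 region and, on chromosomes 2, 6 and 9, near Tcf15, Ccdc126 and Ppp2r3a and in an intron of Ephb1 at the start of a noncoding gene, Gm37260. Apart from Adamts9 these were not called by limma against control WT. Near Tcf15 (152132131 to 152132241) the recovery 3 libraries spread from 5.13% to 88.1% and the controls from 40.5% to 94.4% (limma adjusted p = 0.318). At Ephb1 (102274105 to 102274218) recovery 3 had 37.9% ± 10.99 (n = 10) and control WT 59.9% ± 9.66 (n = 10), with a limma adjusted p of 0.0780. Smoked WT had 69.4% ± 10.3 (n = 9), recovery 1 had 56.04% ± 12.2 (n = 9) and recovery 2 had 49.8% ± 11.6 (n = 10) there. Against smoked WT, recovery 3 differed by -31.42 points at this region (SE 5.00, limma adjusted p = 0.000657). The Ccdc126 and Ppp2r3a regions had limma adjusted p of 0.375 and 0.823. The 5 largest rises were near Frmpd1, 4930524N10Rik and Tmem106b and in introns of Ccser1 and Tbx3os1, at 16.4 to 18.4 points by the size rule, with limma adjusted p of 0.545 to 0.830. At the region level, adjusted for missing cytosines, the difference was smaller near Frmpd1 (8.23 points), near Tmem106b (10.20 points) and at Tbx3os1 (7.1995 points), where 2 of 4, 1 of 3 and 2 of 4 cytosines were lower. At Ccser1 the controls ranged from 31.1% to 95.7% and recovery 3 from 67.7% to 97.6%.

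No region at genes chosen for their link to smoke or to methylation was called, where 0.0318% of all regions were. Their shares at an unadjusted p below 0.05 were 6.56%, 9.52% and 6.0%, beside 6.28% of all regions. Among 61 regions at 23 of 28 NRF2 target genes, limma called 0 with adjustment and gave 4 at an unadjusted p below 0.05 (1 higher, 3 lower), with a median difference of 0.14 points beside 0.04 over all regions. By size 1 region was a DMR (1.64%, against 4.1% of all regions), at Keap1, the gene of the protein that holds NRF2 in check, with 10.1% ± 4.24 (n = 10) in recovery 3 and 15.6% ± 4.61 (n = 10) in control WT (limma adjusted p = 0.722). Among 42 regions at 12 of 14 genes of the aryl hydrocarbon receptor pathway and of human smoking markers, limma called 0 and gave 4 at an unadjusted p below 0.05 (2 higher, 2 lower), with 0 DMRs and a median of -0.06 points. Among 50 regions at 14 of 17 genes of the DNA methylation machinery, it called 0 and gave 3 at an unadjusted p below 0.05 (1 higher, 2 lower), with a median of 0.04 points and 1 DMR, at the methyl-CpG protein gene Mbd3. The smallest unadjusted limma p in these lists, 0.000878, was at Tet3, which encodes an enzyme that oxidises methylated cytosine, with 1.90% ± 1.11 in recovery 3 and 0.435% ± 0.501 in control WT (limma adjusted p = 0.412).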

How the data were processed

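RRBS was done on sperm DNA cut with MspI and TaqαI. Per the study's methods and the submitters' notes, reads were aligned to mm10 with Bismark, whose version is not given in the sources used here. The deposited tables hold, per the authors, 1 percent methylated per cytosine and library, without read counts. Columns carry no sample names, only a facility number, and their group is that of the table they are in. All those of F0 sperm were used (0 left out). The tables of offspring tissues were not used here. A cytosine was scoreable with a value in at least 4 libraries of every one of the 7 F0 sperm groups (1023708 cytosines). A region's level was its mean over cytosines, adjusted for missing ones by the cytosine means over all libraries, with at least 50% of its cytosines present. Groups were compared with limma 3.58.1 (R 4.3.3, moderated variance with a trend over all 7 groups, two-sided, Benjamini-Hochberg over all regions, at least 3 libraries a group). In a simulation over 62831 regions, all 7 groups were drawn from the control WT mean and spread of each region. Pooling the spread was therefore right by design there. Changes were planted in 200 regions, within limits of level and spread that some of the called regions lie outside. Of these, 60% of 10 point and 98% of 20 point changes were recovered. Of the 167 calls, 9 were false. How far these rates hold at the level and spread of each called region was not tested. The limma p-values rest on the spread between libraries, pooled over the 7 F0 sperm groups. That spread holds both differences between males and counting error. Gene models were GENCODE. Every called region is named, the 10 with the smallest p and those in exons or within 1000 bp of a start with full values, and by size the 5 largest rises and falls. Gene lists count regions that overlap a gene or lie within 1000 bp of its start. The regions, lists and tests were chosen with earlier results of these data known.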

Additional observations from a re-analysis of the deposited data

Results flagged for a closer look

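In the control WT and recovery 3 groups of the 20 called regions and of the mean DNAme, 42 groups were examined for a library standing apart by Dixon's ratio, and 5 had one, where chance flags about 1 in 20 groups. In control WT, column 1 was lowest at the Crim1 region with 82.4%, and column 7 was lowest at the Osmr region with 56%. In recovery 3, column 3 was highest at the Fam19a5 region with 87.3%, column 9 at the Gm10741 region near Wif1 with 88.5%, and column 4 at the Galnt3 region with 46.1%. Only the library at the Gm10741 region stood apart in the direction of the group difference in recovery 3, and that call was kept without it.

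At 9 regions the effect in recovery 3 differed from that in smoked WT by the direct limma test of recovery 3 minus smoked WT: -30.46 points at Adamts9, -6.69 at Dnah6, -7.67 at Crim1, -10.04 at Enox1, -5.95 at Cfap54, -10.24 at Cdh4, -12.26 at Ajap1, -20.50 at Osmr and -7.51 at Memo1. The same test gave -31.42 points at the Ephb1 region, which was named by size. Recovery 3 differed in the same way from recovery 1 at Adamts9 (-19.69), Dnah6 (-6.76) and Enox1 (-8.91) and from recovery 2 at Crim1 (-7.38), and recovery 2 from smoked WT at Adamts9 (-23.98). Each pair of effects is against the same control WT libraries. The regions were chosen for their difference in the recovery 3 libraries, so tests with recovery 3 add no separate evidence. Over all regions, limma called 0.0334% for recovery 3 against smoked WT, 0.00796% against recovery 1 and 0.00159% against recovery 2. For recovery 2 against smoked WT it called 0.00318%.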

How the results depend on the processing

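The mean difference in DNAme ranged from -0.278 to 0.592 points without 1 library and did not pass under any setting. The count of 2578 DMRs was 567 with a 10 point change, 6080 with cytosines joined at up to 300 bp, 1156 with at least 5 cytosines, 1636 with a value in at least 6 libraries of every group, and 2311 to 2866 without 1 library. The 20 limma calls became 3 with at least 5 cytosines per region (7 of the 20 regions have as many), 13 with strands merged, 12 with at least 80% of cytosines, 2 in a fit of the 2 groups alone, 12 in a fit of the 5 WT groups (added after the data were seen), and 10 to 21 without 1 library. Without the 2 control WT and 2 smoked WT libraries with the most positions, also added later, there were 19. Settings on joining, cytosines, libraries per group or strands also change which regions are tested. Those counts of DMRs and of calls are therefore not shares of the same set of regions. Of the 20, recovery 2 against smoked WT called 1 region, and 0 with at least 5 cytosines, where the Adamts9 region drops out with 4. Leaving out 1 library always gave 1. Recovery 3 against smoked WT called 9 of them, 2 with at least 5 cytosines, 2 in the fit of the 2 groups alone, and 7 to 9 without 1 library. The cause of these changes was not tested. For single regions, no fit reversed a direction, which the choice of the regions in these libraries favours. Of their values, 121 of the 400 without 1 library and 75 of the 303 under other settings no longer passed. No paired analysis was possible because the columns carry no replicate number of the labels by which to pair libraries. Matching them by run of facility numbers instead, as a term added later, gave 17 calls. Deviations from group means in 35691 regions were not shared within runs of 5 facility numbers, with a median correlation of -0.00345 over 92 pairs and 0.000474 over 829 other pairs. Reads per cytosine are not given, so low coverage and true spread between males cannot be separated.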
